A study of Caenorhabditis elegans with 2 samples.

Results

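The genes described here are the microRNA genes of Caenorhabditis elegans, examined for binding of the transcription factor LIN-32 in embryos. They were chosen by name from the Ensembl annotation of the WBcel235 genome: every gene named mir- with a number, and let-7, lin-4 and lsy-6. The rule found 261 genes among 46890 annotated nuclear genes of all kinds. The biotype of 260 of them was miRNA, and mir-1831 was annotated as an snRNA. The rule uses names alone and no measured value.

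MicroRNAs are short RNAs cut from a hairpin in a longer primary transcript. An Argonaute protein carries the mature strand to messenger RNAs that pair with its seed, the bases near its 5′ end, and the paired messenger is repressed. In the worm, lin-4 and let-7 time larval development, the mir-35 and mir-51 families are needed in the embryo, and lsy-6 sets the left-right difference of a pair of taste neurons. Many microRNA genes lie in introns of protein-coding genes, so that a binding site near a hairpin can also be a site in its host gene. LIN-32 is the worm Atonal-type basic helix-loop-helix (bHLH) factor, which promotes neuronal fates and binds E-box DNA as a dimer.

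The data are chromatin immunoprecipitation and sequencing (ChIP-seq) peak lists from 2 biological replicates of 1 group. The embryos were of strain OP740, which carries the transgene wgIs740, a fusion of lin-32 to TY1, EGFP and 3xFLAG tags beside an unc-119(+) rescue marker, in an unc-119(tm4063) background. They were of mixed embryonic stage and mixed sex, were collected by egg bleaching, and had a labelled age of 3 h. Chromatin was sonicated and recovered with an antibody to GFP, according to the sample descriptions, although the antibody label reads lin-32. LIN-32 marked by the transgene was measured in whole embryos, so that a peak cannot be assigned to a cell type. The IDR list holds 1042 peaks, labelled the optimal set after a threshold on reproducibility (irreproducible discovery rate). The comparison behind that threshold is not named in the labels. Of the 1042 peaks, 1007 had a summit within 100 bp in both replicate lists. The pooled list, called on both replicates together, holds 26004 peaks and includes background. The list of replicate 1 has 30000 peaks and that of replicate 2 has 22601 nuclear peaks. The signal of a peak is the authors' value, on a scale that is not stated, and is used here to rank peaks within a list. Ranks count from 1 at the strongest peak. The read depth of the samples is unknown from these files, and no gene was measured in a second condition.

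The mature sequences below belong to the microRNAs beside the peaks described most fully. They are shown because the 6 genes of the mir-51 family share 1 seed and all had a peak, while mir-62 and mir-90 share another. Each was read 5′ to 3′ from the RefSeq genome of build WBcel235 at the annotated position of the mature strand, and capitals mark the seed, bases 2 to 8.
mir-51: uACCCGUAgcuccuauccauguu
mir-52: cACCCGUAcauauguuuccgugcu
mir-53: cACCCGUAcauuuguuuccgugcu
mir-54: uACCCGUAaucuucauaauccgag
mir-55: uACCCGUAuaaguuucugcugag
mir-56: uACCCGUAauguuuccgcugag
mir-62: uGAUAUGUaaucuagcuuacag
mir-90: uGAUAUGUuguuugaaugccccu
mir-42: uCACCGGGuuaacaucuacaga
mir-124: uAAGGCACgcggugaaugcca
lin-4: uCCCUGAGaccucaaguguga
Across the 6 sequences of the mir-51 family, which are 22 to 24 bases long, the 7 positions of the seed are the only ones alike in all. The mir-51 strand lies at chrIV:11026074-11026096 (minus), mir-52 at chrIV:14034024-14034047 (plus) and mir-53 at chrIV:11027653-11027676 (minus). The other 3 lie together on X, with mir-54 at chrX:13145011-13145034, mir-55 at chrX:13144842-13144864 and mir-56 at chrX:13144706-13144727, all on the minus strand. The mir-62 strand lies at chrX:12692644-12692665 (plus) and mir-90 at chrIII:8874001-8874023 (minus). The mir-42 strand lies at chrII:11889870-11889891, mir-124 at chrIV:11871798-11871818 and lin-4 at chrII:5902269-5902289, all on the plus strand.

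The DNA under 4 of the 14 peaks with an Atonal-type hexamer within 50 bp of the summit is shown as examples. Some peaks not shown, such as that of mir-5546 (11 bp), hold one nearer than most of these. Each line gives 101 bases centred on the summit, on the plus strand of WBcel235 from the RefSeq genome, and capitals mark CAGATG or, on the opposite strand, CATCTG.
Peak shared by mir-54, mir-55 and mir-56: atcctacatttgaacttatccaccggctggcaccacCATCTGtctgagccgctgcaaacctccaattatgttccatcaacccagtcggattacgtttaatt
Peak of mir-90: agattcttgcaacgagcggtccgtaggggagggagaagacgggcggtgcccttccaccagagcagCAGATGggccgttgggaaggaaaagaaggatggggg
Peak shared by mir-42, mir-43 and mir-44: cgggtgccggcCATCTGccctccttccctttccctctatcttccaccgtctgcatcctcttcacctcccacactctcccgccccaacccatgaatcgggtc
Peak of mir-4805: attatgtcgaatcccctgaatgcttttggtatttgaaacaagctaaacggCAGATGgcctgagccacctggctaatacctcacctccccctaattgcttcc
The windows are chrX:13146136-13146236, chrIII:8874460-8874560, chrII:11889516-11889616 and chrII:1061823-1061923 in that order. Measured from its middle, the hexamer lay 12 bp before the summit coordinate in the mir-54 to mir-56 peak, 17 bp after it in the mir-90 peak, 37 bp before it in the mir-42 to mir-44 peak and 2 bp after it in the mir-4805 peak.

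The window of a gene ran from 2000 bp before its annotated 5′ end to 500 bp past it. For 25 of the 261 microRNA genes it held an IDR summit, a share of 9.58% (95% Clopper-Pearson interval 6.30 to 13.8%). By the same window, 3.77% of 19973 protein-coding genes had one. Of all positions on the nuclear chromosomes, weighted by how many microRNA genes each chromosome holds, 2.65% had an IDR summit in such a window, which would correspond to 6.92 genes. The share among microRNA genes was thus 3.62 times that of positions and 2.54 times that of protein-coding genes, and both lay below the interval. The interval counts each gene as independent, which neighbours that share a peak are not. An annotated primary transcript gave another 5′ end for 7 microRNA genes, and for most others the 5′ end is that of the hairpin. For protein-coding genes it is the start of the annotated gene, so the windows are centred on unlike points.

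Other classes of non-coding genes spanned a wide range around this share. Genes for tRNAs had an IDR summit in the window in 35.3% of 612 cases and snoRNA genes in 25.1% of 346. The class annotated as ncRNA had one in 7.23% of 7764 cases and snRNA genes in 7.81% of 128, both inside the interval of the microRNA genes. Genes for lincRNAs (5.67% of 194, interval 2.86 to 9.92%), piRNAs (1.33% of 15363) and pseudogenes (0.940% of 2128) were below it, although the lincRNA and microRNA intervals overlap. The microRNA share thus lay between those of the classes with the highest and lowest shares, near the ncRNA and snRNA classes.

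**Figure D1:**
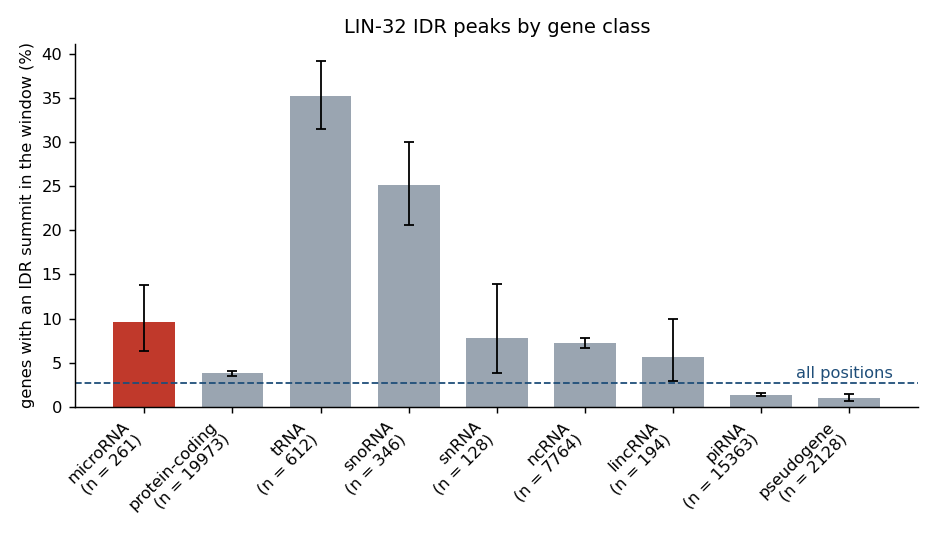
The bars give the percentage of genes in each class with an IDR summit in the window (2000 bp before the 5′ end to 500 bp past it), with 95% Clopper-Pearson intervals, and the dashed line gives the 2.65% of all positions. MicroRNA genes (red, 9.58%) stand above protein-coding genes (3.77%) and far below tRNA genes (35.3%).

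Among pooled peaks the contrast was smaller. A pooled summit lay in the window of 166 microRNA genes (63.6%, interval 57.4 to 69.4%), against 50.8% of protein-coding genes and 46.9% of positions. For ncRNA genes the share was 63.2%. Among the 5000 strongest pooled peaks 69 microRNA genes (26.4%) had one, against 14.5% of protein-coding genes. Where a gene had any pooled peak, the median rank of its best one was 6895.5 for microRNA genes and 10330 for protein-coding genes. No pooled peak lay in the window of 95 microRNA genes.

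Genes with an IDR peak were found on 5 of the 6 chromosomes, and differences between chromosomes were not tested. On II 8 of 50 microRNA genes had one (16%, where 2.63% of positions did), on I 4 of 33 (12.1%, positions 2.95%), on IV 6 of 50 (12%, positions 1.95%) and on X 6 of 73 (8.22%, positions 3.41%). Chromosome III gave 1 of 27, which was mir-90 (3.70%, positions 2.93%). Chromosome V gave 0 of 28, which allows a share of up to 10.7% by 3 counts of the total (Clopper-Pearson upper limit 12.3%), where 1.31% of positions and 1.80% of protein-coding genes had a summit.

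The summits lay close to the 5′ ends more often than in neighbouring bins. From 500 bp upstream to the 5′ end itself, 15 of 261 microRNA genes (5.75%) had an IDR summit, from 11 distinct peaks, against 1.64% of protein-coding genes. The next bin outward held 3 genes (1.15%, protein-coding 0.781%) and the first bin downstream 4 (1.53%, protein-coding 0.295%). From 500 to 1000 bp downstream the share was 3.45%, from 9 genes and 5 peaks. Bins of 500 bp hold few genes, and tandem genes repeat 1 peak in several bins. For most microRNA genes the 5′ end is that of the hairpin, so the 2 kinds of gene are aligned at unlike points.

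**Figure D2:**
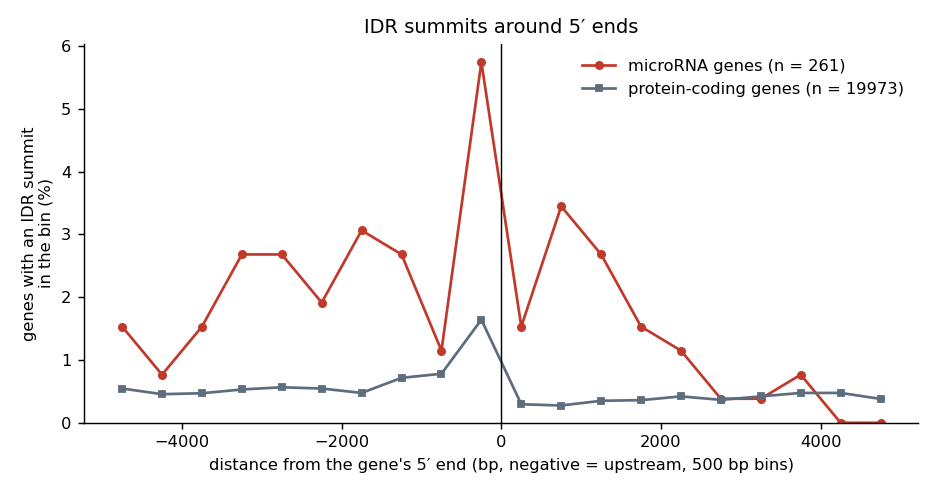
The lines give the percentage of genes with an IDR summit in each 500 bp bin around the 5′ end, with upstream distances negative, for 261 microRNA genes (red) and 19973 protein-coding genes (grey). Both are highest in the bin just upstream of the 5′ end, at 5.75% and 1.64%. For most microRNA genes that end is the hairpin's.

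A total of 27 distinct IDR peaks lay behind the 25 genes. One such peak was found for 15 genes and more than 1 for 10 genes, and 6 peaks were shared by neighbouring microRNA genes. The median signal of the 27 peaks was 136, with a range from 93.2 to 501, and that of the other 1015 IDR peaks was 129. The summit lay in an intron of a protein-coding gene in 13 of the 27 and outside protein-coding genes in 14. None lay in a coding-gene exon and none within 500 bp of a tRNA gene, where a count of 0 allows up to 11.1% by 3 counts of the total (Clopper-Pearson upper limit 12.8%). Of the other IDR peaks 7.19% lay in exons and 17.3% within 500 bp of a tRNA gene. No microRNA gene and none of the 27 peaks lay within 20 kb of lin-32, whose sequence the transgene also carries.

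**Figure D3:**
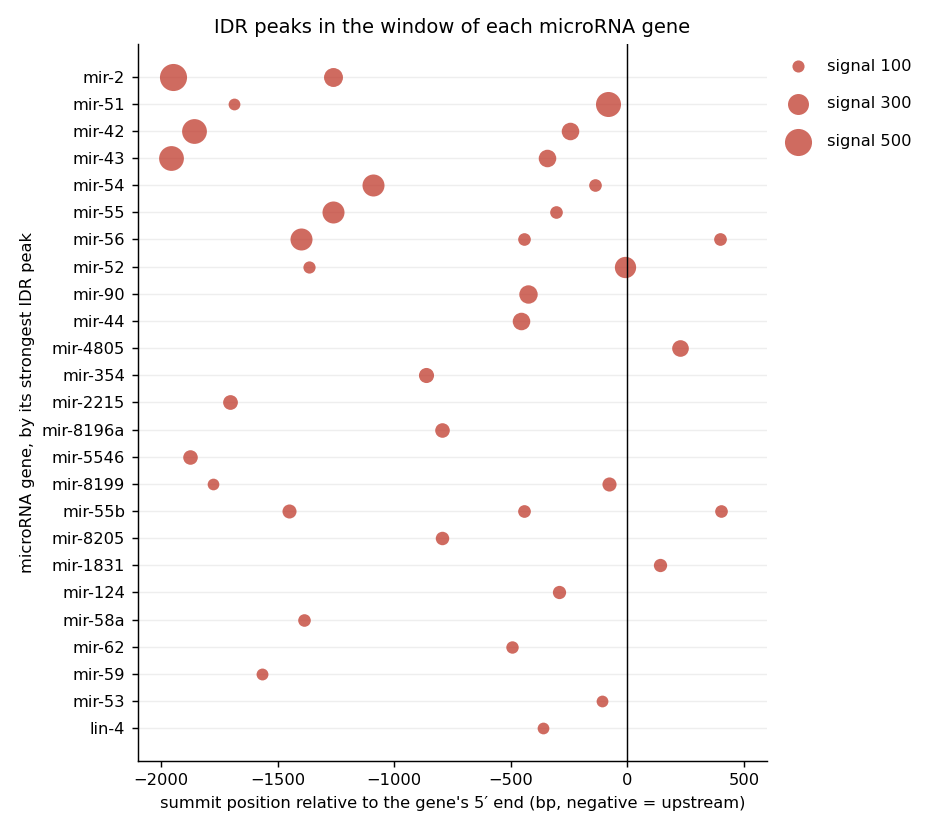
Each circle is an IDR summit in the window of the microRNA gene named on the left, placed by its distance in bp from the gene's 5′ end, and its area grows with the peak signal. Summits of mir-51, mir-52, mir-53 and mir-8199 lie 8 to 108 bp upstream of the 5′ end, and genes of 1 cluster show the same peaks at shifted distances.

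The mir-51 family, which acts redundantly in embryonic development, was the only seed group in which every gene had an IDR peak. It comprises 6 genes at 3 loci, and 7 distinct peaks lay in their windows. The strongest, of signal 427, was 82 bp upstream of mir-51 (chrIV:11026089-11026329, rank 27 of 1042), outside protein-coding genes. Its rank was 17 in replicate 1 and 64 in replicate 2, so it was among the strongest peaks of each. A weaker peak (signal 94.8) lay 108 bp upstream of mir-53, which is upstream of mir-51 on the same strand, and ranked 1026 and 788 in the replicates.

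At mir-52, also on IV, a peak of signal 309 lay 8 bp upstream of the gene's 5′ end and ranked 97 in replicate 1 and 53 in replicate 2. A second peak of 102, at 1364 bp upstream, ranked 473 in replicate 1 and 4073 in replicate 2, and so was outside the 1042 strongest in replicate 2. The mir-54, mir-55 and mir-56 genes lie in tandem on X in an intron of F09A5.3, on the opposite strand from it. Their common upstream peak, of signal 331, was 1092 bp upstream of mir-54, with ranks of 58 and 73 in the replicates. A peak of 109 lay 137 bp upstream of mir-54 and ranked 639 and 829. Another, of signal 110, lay 399 bp downstream of the 5′ end of mir-56, with ranks of 1285 and 427. The gene mir-55b, annotated on the other strand of the same stretch, had both of these weaker peaks and another of signal 135 in its window.

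At the mir-42, mir-43 and mir-44 cluster on II, 2 IDR peaks lay upstream of the hairpins. The farther one, of signal 419 and rank 28, was 1858 bp upstream of mir-42 and 1957 bp upstream of mir-43, too far from mir-44 to count for it. It ranked 29 in replicate 1 and 31 in replicate 2, and its summit lay in the lincRNA gene linc-47. The nearer one had a signal of 210, lay 245 bp upstream of mir-42 and ranked 164 and 218. A stronger peak, of signal 709, lay 955 bp downstream of the 5′ end of mir-42 and 743 bp downstream of that of mir-44. It was outside the window of all 3 genes, with ZK930.2 as its nearest protein-coding gene. The 3 microRNAs carry 3 different seeds, as mir-42 belongs to the mir-35 family, mir-43 shares a seed with mir-2, and mir-44 with mir-45, mir-61 and mir-247.

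**Figure D4:**
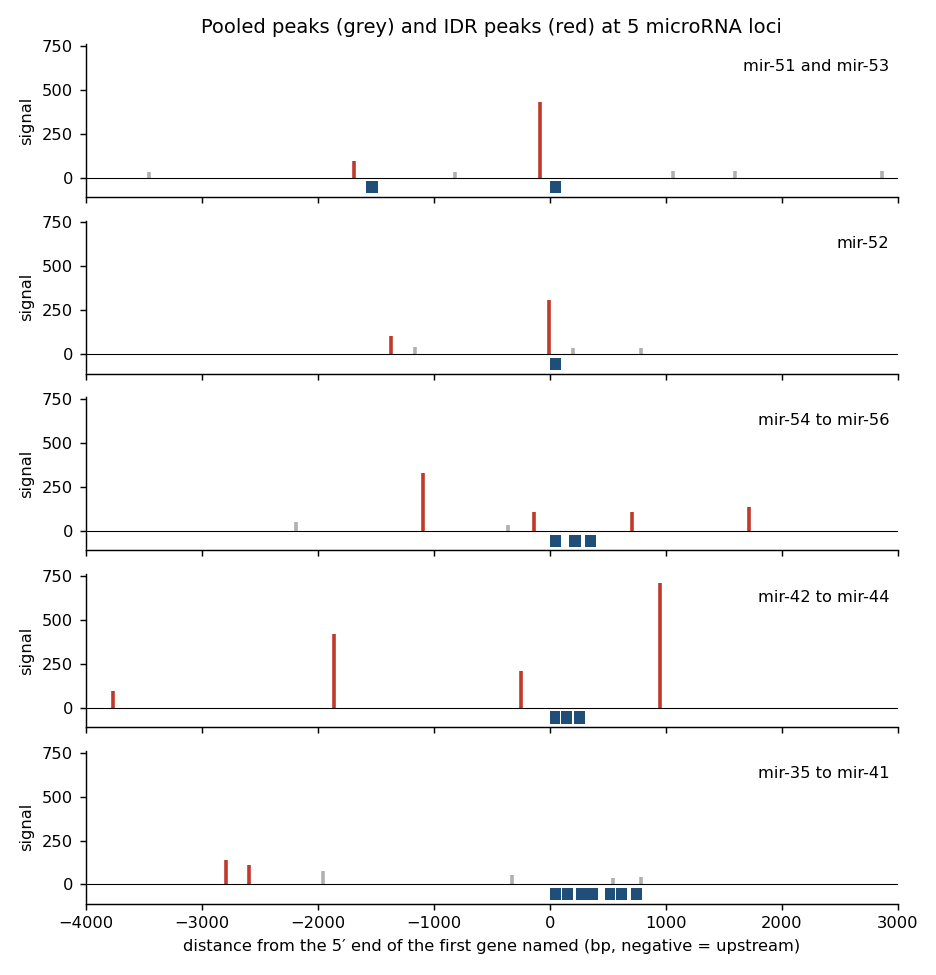
Each panel shows pooled peaks as vertical lines at their summits, with the authors' signal as height, against the distance in bp from the 5′ end of the first gene named; red lines are IDR peaks, grey lines other pooled peaks and blue boxes the annotated genes. The peaks at mir-51 (427) and mir-52 (309) stand at the 5′ ends, that of mir-54 to mir-56 (331) stands 1092 bp upstream, and the mir-35 to mir-41 cluster has IDR peaks only beyond 2000 bp upstream.

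The strongest peak in the window of any microRNA gene lay upstream of mir-2, a microRNA placed in the list of neuron-linked genes. Its signal was 501, at rank 21, and its summit was 1947 bp upstream, near the far edge of the window. It ranked 18 in both replicates. A second peak of signal 245 lay 1263 bp upstream and ranked 173 and 157. Both lay in introns of ppfr-1, a protein phosphatase regulatory subunit gene and the host of mir-2. The gene mir-71 is in ppfr-1 too and had no IDR peak in its window, where the best pooled peak had a signal of 52.2 and rank 5521.

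Of the other genes on the neuron-linked list, mir-124 had an IDR peak. It is a conserved microRNA of the nervous system, found in sensory neurons in the worm, and lies in an intron of the channel gene trpa-1. The peak had a signal of 120, lay 292 bp upstream and ranked 627 in replicate 1 and 651 in replicate 2. Neither hexamer lay within 50 bp of its summit. The 4 others on that list had no IDR peak. For mir-791 and mir-234 the best pooled peaks had signals of 49.1 and 32.3, and lsy-6 had none.

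Among the 9 genes listed as heterochronic, the class tied to developmental timing, lin-4 alone had an IDR peak. The peak had a signal of 94.0, lay 361 bp upstream in an intron of F59G1.4, the host gene of lin-4, and ranked 746 in replicate 1 and 3126 in replicate 2. It ranked 1005 of 1042 in the IDR list and was outside the 1042 strongest peaks of replicate 2. The best pooled peak of let-7 had a signal of 48.0 and rank 7532, at 1827 bp upstream of the annotated primary transcript. Measured from the let-7 hairpin, the best was one of 43.6 at 300 bp before it. Of the others, mir-795 (77.8, rank 1512), mir-794 (44.5), mir-84 (38.2), mir-237 (36.3) and mir-241 (32.3) had pooled peaks, and mir-48 and mir-793 had none.

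The mir-35 family, which the embryo needs, had an IDR peak in 1 of 8 genes, mir-42. The other 7 form the mir-35 to mir-41 cluster on II, in an intron of Y62F5A.9 on the opposite strand. The IDR summits nearest to it lay 2590 and 2791 bp upstream of mir-35, with signals of 111 and 137, and so fell outside the window. Within it, mir-35 had a pooled peak of 77.5 (rank 1525) and mir-36 to mir-41 shared one of 54.3 (rank 4804).

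A pair of genes with 1 seed, mir-62 and mir-90, had peaks at unlinked loci, while mir-50, the other gene with that seed, had none in the IDR list and a best pooled peak of 63.1. The mir-90 peak had a signal of 231, lay 426 bp upstream in an intron of K01F9.2, its host, and ranked 129 and 180. The mir-62 hairpin is a mirtron, cut from an intron by splicing, in the UDP-glycosyltransferase gene ugt-50. Its peak had a signal of 105, lay 496 bp upstream and ranked 1039 and 813. The summit lay 539 bp past the 5′ end of ugt-50, just outside the window of that gene. Mature sequences were available for 260 genes, and 46 seeds were shared by more than 1 gene. Of these seed groups 7 held a gene with an IDR peak. Both mature strands of a hairpin were counted, so a gene can stand in more than 1 group. In the groups of GACUAGA and UGGAUGU the gene was mir-44 each time, with the same peak.

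Among the bantam-like genes, an abundant group in the worm, mir-58a had an IDR peak of signal 109, at 1388 bp upstream in an intron of Y67D8A.2. It ranked 722 and 956. Of the 7 names on that list 5 were found, and the 4 others had no IDR peak, with mir-80 the next (pooled 76.2, rank 1601). None of the 4 genes tied to other tissues had an IDR peak, and 0 of 4 has a Clopper-Pearson upper limit of 60.2%. These were mir-1 of muscle (pooled 43.1, rank 10800), mir-228 of glia (66.7, rank 2396), mir-60 of intestine (50.8, rank 6094) and mir-61 of the vulva, with no pooled peak.

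The remaining genes with an IDR peak are less studied microRNAs, for most of which a protein-coding gene lay near. The mir-4805 peak (signal 189, 225 bp downstream of the 5′ end) lay in the window of btb-10 as well. The mir-354 hairpin is annotated in an exon of rps-20, a ribosomal protein gene, and its peak (155) lay in the windows of rps-20, ekl-4 and Y105E8A.14. The mir-5546 hairpin is in arx-1, an Arp2/3 complex gene, and its peak (145) lay 12 bp upstream of Y71F9AL.6. The mir-8205 hairpin is in the septin gene unc-59, and its peak (124) lay 186 bp upstream of unc-59 itself.

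The stronger mir-8199 peak (136) lay 16 bp upstream of C40A11.4, and the weaker one (93.2) ranked 645 in replicate 1 and 2569 in replicate 2. The mir-1831 peak (121, 142 bp downstream of the 5′ end) lay in the window of eif-2Bgamma. Its summit lay in the annotated ncRNA gene C15F1.14 and the annotated snRNA gene sup-39. The mir-59 peak (96.4) lay 153 bp upstream of znf-207 and ranked 814 and 1282. The peaks of mir-2215 (149) and mir-8196a (145) lay in no protein-coding window.

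Across the 27 peaks, 7 (25.9%, interval 11.1 to 46.3%) lay in the window of a protein-coding gene, against 53.9% of the other IDR peaks. More than 2000 bp from any protein-coding 5′ end lay 16 (59.3%), against 36.3%. Introns held 48.1% of them, against 30.5%, and an annotated ncRNA or lincRNA gene lay at the summit of 10 (37.0%), against 15.1%. These peaks were chosen by the windows of microRNA genes, of which 154 lie outside protein-coding genes and 67 and 30 in introns on the host's or the opposite strand, so their places are not independent of that choice. By place of the gene, an IDR peak was found for 10 of 67 microRNA genes in an intron on the host's strand (14.9%, interval 7.40 to 25.7%). It was found for 3 of 30 in an intron on the opposite strand (10%, 2.11 to 26.5%), 11 of 154 outside protein-coding genes (7.14%, 3.62 to 12.4%) and 1 of 10 in exons. These intervals overlap.

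CAGATG or CAGCTG, the E-box forms that Atonal-type dimers bind, lay no more than 50 bp from the summit, in either orientation, in 14 of the 27 peaks (51.9%, interval 31.9 to 71.3%). CAGATG was present in 11 and CAGCTG in 4. Of the other IDR peaks 30.7% held one, and of all windows of 101 bp in the nuclear genome 6.06% did. Without peaks beside tRNA genes the share of the other IDR peaks was 36.1% (n = 839), which lies within the interval of the 27. The median GC content of the windows was 49.5% in both groups of peaks. The peaks with a hexamer included the stronger mir-2 peak (signal 501), the mir-90 peak and the nearer peak of mir-42 to mir-44 (210). The upstream peak shared by mir-54 to mir-56 (331) and the weaker mir-52 peak (102) held one too. Other peaks at these loci held neither: the weaker mir-2 peak (245), the farther mir-42 peak (419) and the mir-54 peak of signal 109. The peaks at the 5′ ends of mir-51, mir-52 and mir-53 and those of mir-124 and lin-4 had neither hexamer in this window.

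All 27 peaks had a summit within 100 bp in each replicate list, as did 96.6% of the other IDR peaks. Such matching is partly built into the IDR list. Among the 1042 strongest peaks of both replicates were 21 of the 27 (77.8%), against 66.0% of the others. The median rank was 537 in replicate 1 and 427 in replicate 2, and the worst ranks were 1285 and 4073. Taking each replicate's 1042 strongest peaks alone, 26 microRNA genes had one in replicate 1 and 23 in replicate 2. The same 23 were in both, and all of them had an IDR peak. The genes lin-4 and mir-59 had an IDR peak but no such peak in replicate 2, and mir-87 had one in replicate 1 with no IDR peak. Both replicates were called against 1 shared control.

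**Figure D5:**
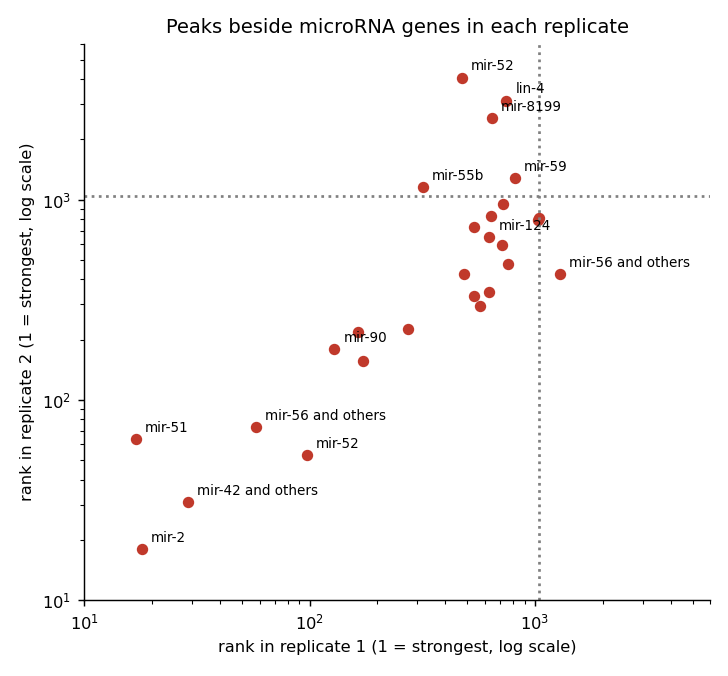
Each point is 1 of the 27 IDR peaks beside microRNA genes, by its rank in replicate 1 and in replicate 2 (log axes, 1 is the strongest), and dotted lines mark rank 1042. The peaks of mir-2, mir-51, mir-42 and mir-56 rank within the first 100 in both lists, while a mir-52 peak (4073) and that of lin-4 (3126) rank beyond 1042 in replicate 2.

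Pooled peaks outside the IDR list, which include background, lay beside 141 further genes. For 54 of these the best one was matched in both replicates. Counting any pooled peak matched in both, IDR peaks among them, 31.8% of microRNA genes had one (positions 17.0%, protein-coding genes 19.8%). The strongest outside the IDR list were those of mir-788 (signal 88.3, rank 1124), mir-8190 (87.2), mir-235 (84.3), mir-86 and mir-8211 (83.6, shared), mir-231 (80.4), mir-5549 (78.7), mir-795, mir-35 and mir-80. Their −log10 q-values ran from 1.78 for mir-788 to 1.18 for mir-80. The mir-788 peak ranked 1755 and 1390 in the replicates. The mir-86 peak ranked 1046 in replicate 1 and 5790 in replicate 2, so the replicates placed it apart.

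The edges of the window decide some of these assignments. Just inside its upstream edge lay the summits of mir-43 (1957 bp) and mir-2 (1947 bp). Within 1000 bp beyond an edge, 16 microRNA genes without an IDR peak in the window had one. They included mir-796 (2176 bp upstream, signal 248), mir-243 (2269 bp, 395), mir-241 (2316 bp, 111), mir-230 (2577 bp, 248) and mir-4813 (2889 bp, 232). Downstream of the 5′ end, mir-86 (647 bp) and mir-8211 (893 bp) shared a peak of 95.1. The tandem genes mir-4921, mir-4923a, mir-4923b, mir-4925 and mir-1018 shared 1 of 118 at 916 to 1437 bp. Upstream, mir-35 to mir-38 shared 1 of 111. In the 500 bp bins beyond the edges, protein-coding shares were 0.546% and 0.566% going outward upstream, and 0.275% and 0.350% going outward downstream. The microRNA shares, in the same order, were 1.92%, 2.68%, 3.45% and 2.68%, which also count genes with a peak in the window.

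Of 22 protein-coding genes of microRNA production, action and targeting, 8 had an IDR peak in the same window (36.4%, interval 17.2 to 59.3%), against 3.77% of all protein-coding genes. They included the 2 Argonaute genes of the microRNA pathway, alg-2 with a signal of 291 at 33 bp upstream (replicate ranks 81 and 116) and alg-1 with 130 at 747 bp upstream (602 and 491). The alg-5 gene, for another Argonaute, had one of 143, with ranks of 1254 and 224. The ain-1 gene, for a GW182-type partner of Argonaute, had one of 126, which ranked 7441 in replicate 1 and 488 in replicate 2. The others were xrn-2, an exoribonuclease gene (116, ranks 658 and 655), and nhl-2, a TRIM-NHL gene (110, ranks 1143 and 554). Also among them were hbl-1, a zinc-finger gene of developmental timing (93.2), and vig-1, for a protein of the silencing complex (92.6). Their peaks ranked 2236 and 753 for hbl-1 and 1821 and 759 for vig-1. In replicate 1 the peaks of alg-5, ain-1, nhl-2, hbl-1 and vig-1 were outside the 1042 strongest. The alg-5 and xrn-2 peaks each lay in the windows of 3 protein-coding genes and the nhl-2 peak in those of 2. The 22 genes were listed with earlier results of these data known, so the contrast with 3.77% describes this list alone.

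No IDR peak lay in the windows of the processing genes drsh-1, pash-1 and dcr-1 or of the timing genes lin-14, lin-28, lin-29 and lin-41. An IDR peak of signal 252 lay 2380 bp upstream of drsh-1, just outside its window. Within the window the best pooled peak of drsh-1 had a signal of 63.7 and was matched in replicate 1 alone. The best pooled peaks of lin-41 (39.8) and lin-14 (37.5) ranked 13652 and 16087 of 26004, and pash-1, dcr-1, lin-28 and lin-29 had none. An IDR peak beside a gene, microRNA or protein-coding, gives a position where tagged LIN-32 was recovered. Pooled peaks outside the IDR list include background and need not mark bound LIN-32. The best one had a −log10 q-value of 1.78 for mir-788 but 0.177 for let-7. Neither kind of peak measures the expression of a gene, which was not recorded in these lists.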

How the data were processed

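ChIP-seq of tagged LIN-32 was deposited as 4 peak lists: 1 per replicate, 1 pooled and 1 IDR set derived from them, per the deposited notes. The lists were called against 1 control alignment. The signal of each peak and its −log10 q-value are the authors' deposited values, and the summit offset is their deposited distance from the peak start. The build is ce11 per the labels, the same assembly as WBcel235. No source used here names the aligner, the program that called peaks, the cutoff of the IDR set or where the control came from. The 17 mitochondrial peaks of replicate 2 were left out.

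Genes came from Ensembl release 115, with symbols checked by gene ID in RefSeq, through which let-7 was found, and the 5′ end is that of the gene span. The share of positions was computed exactly over every base and both strands. No test between groups was possible with 1 group, so counts carry 95% Clopper-Pearson intervals that cover counting error only. Members and lists were chosen with earlier results of these data known. Genes are named if they had an IDR peak, were among the 10 next strongest by pooled peak, lay within 1000 bp outside the window, or stood on a list. Not every listed gene is described. Procedures were tested on simulated data. Python 3.11.15, numpy 2.4.6, scipy 1.17.1 and matplotlib 3.10.9 were used.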

Additional observations from a re-analysis of the deposited data

How the results depend on the processing

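The count of 25 microRNA genes with an IDR peak stayed within 1.5 times under 10 alternatives. It was 19 with 1000 bp upstream to 200 bp downstream (7.28% of genes). By that window 1.32% of positions and 2.52% of protein-coding genes had a summit. With 2000 bp either side it was 33 (positions 4.11%, protein-coding 4.60%) and with interval overlap 27. Taking 1 gene per cluster gave 19 of 210. Leaving out peaks beside tRNA genes gave 25 (positions 2.15%, protein-coding 3.35%). The IDR peaks at or above the median signal gave 17 (6.51%, positions 1.36%, protein-coding 1.87%). Replicate 2 alone gave 23 (8.81%, positions 2.64%, protein-coding 3.82%). Replicate 1 alone gave 26 (9.96%, positions 2.65%, protein-coding 3.67%). Added after seeing the data, hairpin 5′ ends gave 25 and leaving out the mir-51 family gave 19 of 255. It moved to 44 with 5000 bp upstream (positions 5.52%) and to 16 when each peak went to its nearest 5′ end. The position share was 2.80% outside protein-coding exons. The count of 166 with a pooled peak fell to 105 with the narrow window (40.2%, positions 27.5%). It was 69 with the 5000 strongest peaks (26.4%, positions 11.4%, protein-coding 14.5%). Peaks matched in both replicates gave 83 (31.8%, positions 17.0%, protein-coding 19.8%). Replicate 2 alone gave 142 (54.4%, positions 42.5%) and replicate 1 alone 168 (64.4%, positions 52.4%). Hexamers within 25 bp were found in 8 peaks. These moves follow from how each alternative is built: a longer or shorter window, fewer peaks, or 1 gene per peak. Leaving out peaks beside tRNA genes could not change the count, because none of the 27 peaks lay within 500 bp of one. Leaving out the mir-51 family, whose 6 genes all had a peak, could only give 19. No paired analysis was possible because there is 1 group. Read depth is unknown, so no limit from depth could be given.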
